A study of Mus musculus with 10 samples.

Results

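The oxidative phosphorylation system of the inner mitochondrial membrane is built from nuclear-encoded subunits and a few subunits encoded in the mitochondrial genome. The nuclear genes studied here were the 93 of the 36172 genes in the deposited table whose symbol begins with Ndufa, Ndufb, Ndufc, Ndufs or Ndufv, with Uqcr, with Cox4 to Cox8, with Atp5, or is Sdha, Sdhb, Sdhc or Sdhd. The rule uses gene symbols only, but it was set with earlier results of these data known. Of the 93 genes, 88 had values and passed the filter on low values, and 5 were listed at 0 in every library. By role, 74 of the 88 are subunits that all tissues use, 5 are isoforms restricted to certain tissues, 6 are assembly factors of complex I that share the Ndufa prefix, and 3 are related genes.

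Complex I (the Nduf genes) and complex II (the Sdh genes) feed electrons from NADH and succinate into ubiquinone. Complex III (the Uqcr genes) passes them to cytochrome c, and complex IV (the Cox genes), cytochrome c oxidase, passes them to oxygen, while complex V (the Atp5 genes) uses the proton gradient to make ATP. Heart muscle is among the tissues richest in these complexes, and several Cox subunits have a second gene copy used mainly by heart and skeletal muscle, lung, testis or cells short of oxygen.

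The 10 RNA-seq libraries, 2 for each of 5 cell types, were made from cells that grew out of the left atrial appendage, a small muscular pouch on the heart, of C57BL/6 mice aged 8 to 12 weeks. Explants were digested in 3 rounds of 5 min with collagenase D at 0.1% together with trypsin. A-type cells were primary cells after the strong digestion with 0.25% trypsin and carried the stem cell receptor c-kit but not the leukocyte antigen CD45. B-type cells were primary cells after the weak digestion with 0.05% trypsin and were c-kit+/CD45+. C1 cells came from B-type cultures at passage 6 and were c-kit+/CD45-, C2 cells were taken at passage 8 and C3 cells at passage 10, and both were c-kit-/CD45-. The study compared the primary types and followed how cultured B-type cells change into other types. Nothing in the labels ties the 2 libraries of a type to separate animals or cultures, and p-values therefore cover only the spread between these libraries, which may be technical.

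The deposited values are on a log2 scale with the median of each gene over the 10 libraries removed, so for 83 of the 88 genes only differences between libraries are known. The 5 restricted isoforms reach the floor of the table in at least 2 libraries, and their level could be stated in normalized reads, that is reads divided by the size factor of the library, with 1 as the floor. Relative depth, read from the spacing of low values, ran from 0.436 to 0.595 in A and B, from 0.490 to 1.498 in C1 and C2, and from 3.86 to 5.03 in C3. A level under 3 reads, between 2.00 and 6.88 normalized reads outside C3, cannot be told from 0 at this depth, and these limits cover counting error only. Transcripts of Ptprc, the gene of CD45, stood at 2823 and 2723 normalized reads for B and at 1 or 1.01 in C1, C2 and C3, but at 6.72 and 82.1 in the 2 libraries of A, which is labelled CD45-. Kit was at 12.7 to 66.4 in B and C1 and at most 3.11 in C2 and C3, while the 2 A libraries held 3.36 and 72.3. The Y-linked gene Ddx3y did not rise above the floor in C3, and stood at 57.2 and 86.2 for C2 and between 353 and 1344 in the other 6. Xist, the RNA of the inactive X chromosome, had centred log2 values of 1.09 and 4.12 for A, 4.92 and 4.74 for B, −4.82 and −5.24 for C1, −5.80 and −4.61 for C2, and −0.17 and 0.17 for C3. The animals behind the libraries and the cell type or passage therefore cannot be told apart in any of the comparisons.

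The 74 subunits of all tissues varied within narrow ranges between the cell types. The range between the highest and the lowest type mean of a subunit had a median of 0.74 on the log2 scale, against 1.62 over 14246 tested genes, and it was under 1 for 63 of the 74 (85.1%) against 25.3% of all tested genes. Ndufs1, the largest core subunit of complex I, varied least, with a range of 0.24, and Ndufa6, an accessory subunit of its matrix arm, varied most, with 1.71. All 8 subunits of complex III and all 15 of complex V stayed under 1, and the medians by complex were 0.79 for I, 0.60 for II, 0.67 for III, 0.80 for IV and 0.69 for V. The 5 restricted isoforms ranged from 3.74 to 11.24. The subunits also differed less between the 2 libraries of a type, with a root mean square gap of 0.14 in C3 to 0.26 in C2, against 0.44 to 1.06 over all tested genes. The tested genes include 1195 that reach the floor in at least 2 libraries, and they were not matched to the subunits by abundance. The part of abundance in the narrow ranges and small gaps was not tested.

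A difference was called where limma, fitted over all 10 libraries and 14253 genes with Benjamini-Hochberg adjustment, gave an adjusted p below 0.05 together with a log2 difference of 1 or more in either direction. Over 6 comparisons, 21 of the 88 genes were called at least once and 67 were not. The 21 hold 10 of the 74 subunits of all tissues (13.5%), all 5 restricted isoforms, 3 assembly factors and the 3 related genes. Over all tested genes, which were not matched to the subunits by abundance, 65% were called at least once. A restricted isoform could pass the filter only through the types where it is high, so their share is a description. Comparisons that name the same type share its libraries. Near-identical copies elsewhere in the genome, which can split or add reads, exist for 21 of the 93 genes, including Atp5c1, Atp5g1, Atp5l, Cox5b, Cox7b, Ndufa12, Ndufb4 and Ndufs3.

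**Figure D1:**
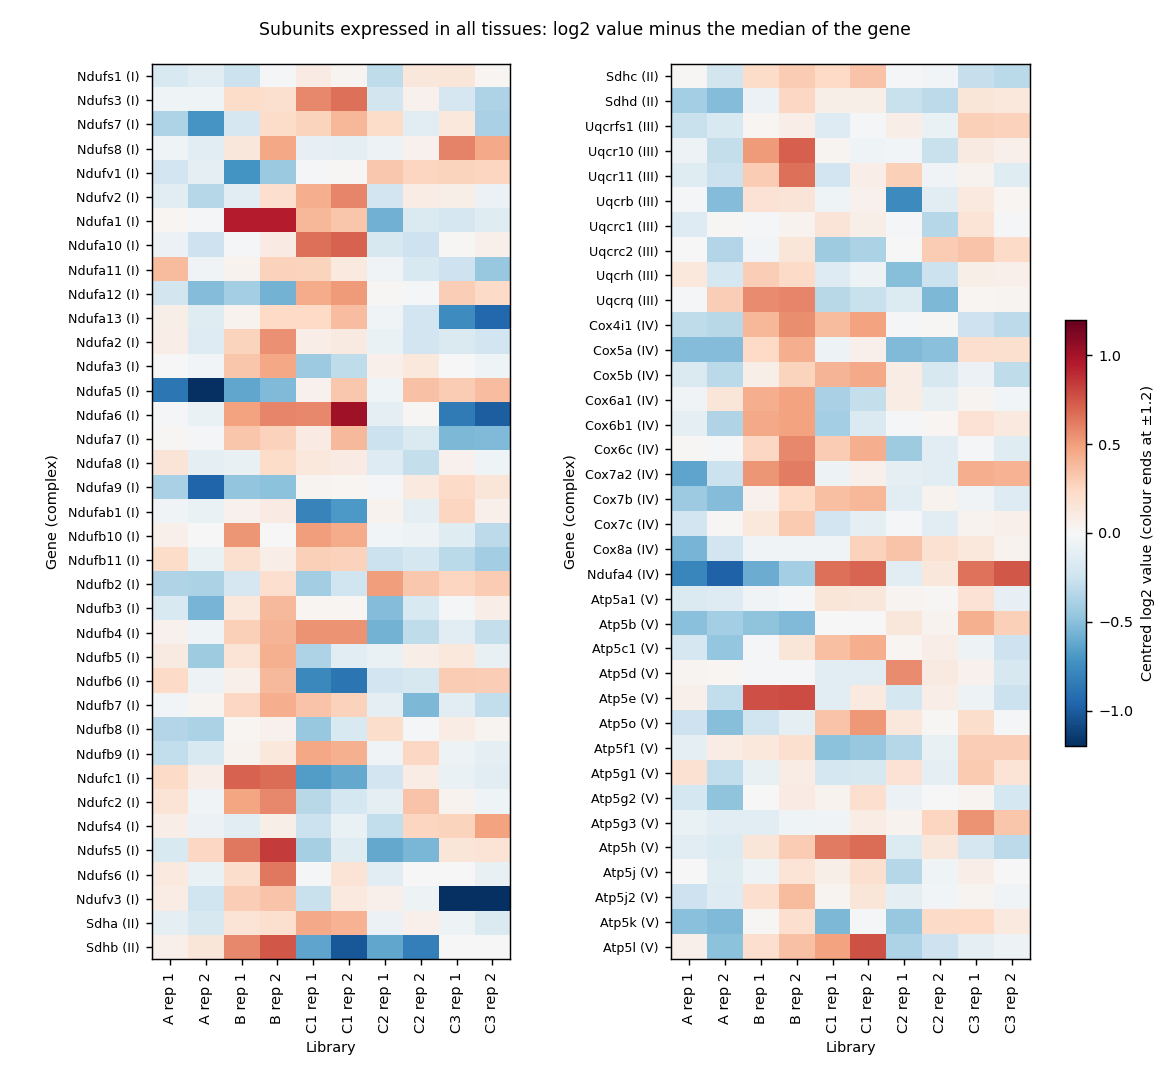
Heat map of 73 of the 74 subunits of all tissues (one row per gene, complex in brackets) in the 10 libraries (columns), coloured by the log2 value minus the median of the gene. Colours end at ±1.2 and most cells are pale. The lowest cells are Ndufv3 in C3 (−1.38 and −1.33) and Ndufa5 in A replicate 2 (−1.30), and the highest is Ndufa6 in C1 replicate 2 (1.02).

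Among the 74, the highest type mean fell in B for 27, in C1 for 26, in C3 for 16, in C2 for 5 and in A for 0. The lowest fell in A for 28, in C1 for 16, in C2 for 14, in C3 for 12 and in B for 4. In complex IV, 7 of 11 subunits were highest in B and 7 of 11 lowest in A. In complex V, 7 of 15 were highest in C1 and 7 of 15 lowest in A. These orders are a description, since many neighbouring type means lie within the gap between libraries of a type.

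The widest differences lay in complex IV isoforms. Ndufa4l2 (chr10:127509274-127517154, GRCm38.p6, as all positions here) encodes a relative of the complex IV subunit Ndufa4 and is known as a target of the hypoxia factor HIF1. Its level was 2421 and 2402 normalized reads for A, 910.0 and 795 for B, 1.01 and 1 for C1, 14.3 and 7.25 for C2, and 1 and 1 for C3. A was highest, B next, C2 above its limits of 6.12 and 3.11, and C1 and C3 at or beside the floor, with no overlap between A, B and C2. A exceeded B 2.83-fold (limma, log2 difference of B minus A −1.504 ± 0.29 SE, adjusted p = 0.00644). Against the 3-read limit, B was at least 282-fold higher than C1 (adjusted p = 2.27e-06, limma) and A at least 798-fold higher (adjusted p = 3.74e-06, limma). C2 was at least 3.56-fold higher than C1 and at least 10.8-fold higher than C3 (adjusted p = 0.000426 and 0.000288, limma). The adjusted p-values given with these minimum folds belong to the limma log2 differences and do not test the folds against the 3-read limit. Libraries at or beside the floor hardly differ from each other, which lowers the spread behind all p-values of this gene. In bulk libraries such as these, fewer cells of a kind and less RNA per cell cannot be told apart.

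Cox4i2 (chr2:152753916-152765039) encodes the second isoform of subunit 4, used in lung and under low oxygen. Its level was 99.8 and 118 normalized reads for A, 63.5 and 46.4 for B, 1.01 and 2.02 for C1, 55.8 and 83.9 for C2, and 1 and 1 for C3. The gene was thus present in both primary types and in C2, and at or near the floor in C1 and C3; B and C2 overlap. A was at least 36.0-fold higher than C1 (adjusted p = 7.35e-05, limma) and B at least 18.2-fold (adjusted p = 6.4e-05, limma). From passage 6 to 8 the level rose at least 23.1-fold (adjusted p = 0.000166, limma), and from passage 8 to 10 it fell at least 69.8-fold (adjusted p = 7.36e-05, limma). As for Ndufa4l2, these p-values belong to the log2 differences and do not test the minimum folds. Both C3 libraries sat at the floor, which lowers the spread behind the p-values of Cox4i2. Cox4i1, the partner of Cox4i2 and the isoform of most tissues (chr8:120668225-120674209), followed another order. Centred log2 values of this gene were −0.31 and −0.34 for A, 0.40 and 0.56 for B, 0.38 and 0.48 for C1, −0.01 and 0.01 for C2, and −0.25 and −0.31 for C3. Cox4i1 was higher in B than in A by 0.80 ± 0.12 (adjusted p = 0.00267, limma) and lower in C3 than in C1, by −0.71 ± 0.12 (adjusted p = 0.00295, limma).

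Pericytes and smooth muscle cells are known to express Ndufa4l2 and Cox4i2, and their markers moved between the types as well. Over the 5 of 10 pericyte and smooth muscle markers with a known level, the summed level was 277 and 618 normalized reads for A, 809 and 822 for B, 5.02 and 5.00 for C1, 17.3 and 12.3 for C2, and 5 and 5 for C3. Most of the sum in A and B came from Cspg4, at 195 and 503 for A and 720 and 725 for B, while Abcc9 was higher in A, at 60.5 and 66.7 against 18.2 and 7.33 for B. In C1 replicate 2 and both C3 libraries all 5 (Des, Rgs5, Kcnj8, Abcc9 and Cspg4) were at the floor. Of the 9 markers tested, 6 were called lower in B than in A (Abcc9, Kcnj8, Notch3, Mcam, Pdgfrb and Acta2) and 1 higher (Des). The shares over all tested genes were 12.4% and 14.5%. Kcnj8 and Abcc9 passed the filter on low values only through the A libraries, so these calls of them are a description. In C1 against B, 1 of the 9 was called higher and 6 lower, against 12.6% and 21.1% of tested genes. The higher one was Pdgfrb, with centred log2 values of 1.30 and 1.21 for C1, 0.015 and −0.015 for B, and 1.19 and 1.69 for A. In C2 against C1, 3 of the 9 were higher and 1 lower, against 12.2% and 8.18%. In C3 against C2, 0 were higher and 5 lower, against 11.6% and 16.2%. The fibroblast marker Thy1, the only 1 of 12 fibroblast markers with a known level, was at 6322 and 5772 for A, 832 and 866 for B, 1.01 and 1 for C1, 20.3 and 17.6 for C2, and 1 and 1.59 for C3. Of the 12 fibroblast markers, 4 were called lower and 1 higher in C1 than in B. In C2 against C1, 6 were higher and 1 lower, and in C3 against C2, 11 were lower. The shares of all tested genes are those given above for the same comparisons. The part of the pericyte, smooth muscle and fibroblast markers in the isoform differences was not tested.

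**Figure D2:**
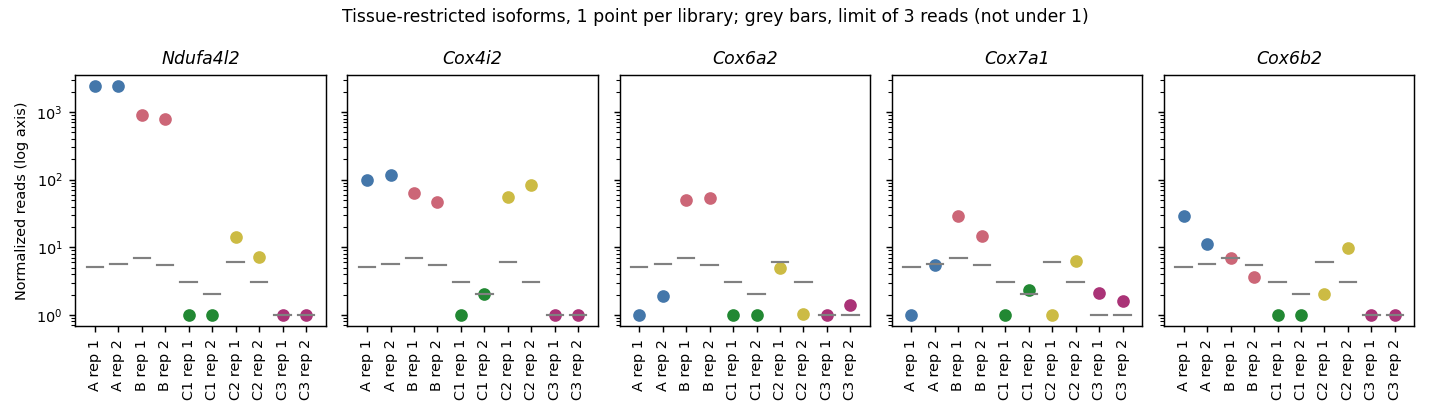
Levels of the 5 tissue-restricted complex IV isoforms in normalized reads on a log axis, 1 point per library, with grey bars at the limit of 3 reads (not under 1). Ndufa4l2 spans from 1 in C3 to 2421 in A, Cox4i2 is at or near the floor in C1 and C3, and Cox6a2 stands out in B.

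The muscle isoforms of complex IV were near the floor outside B. Cox6a2 (chr7:128205435-128206366), the heart and skeletal muscle form of subunit 6a, had 50.3 and 54.1 normalized reads for B, 1 and 1.92 for A, 1 and 1 for C1, 5.00 and 1.03 for C2, and 1 and 1.39 for C3. Both B libraries were above all others, and A, C1 and C2 lay under their limits. B was at least 9.08-fold above A and at least 17.3-fold above C1. Cox6a2 and Cox7a1 passed the filter on low values only through the B libraries, and Cox6b2 only through the A libraries, so no p-value is given for these 3 genes and calls of them are a description. The exons of Cox6a2 share 10.3% of their bases with Itgad, an integrin gene of macrophages on the opposite strand, and the library kit does not mark strand, so reads from the shared bases cannot be told apart. Itgad was at 267 and 245 normalized reads for B, 1 and 10.2 for A and at most 1.02 in C1, C2 and C3. The nearby Itgax, another leukocyte integrin, was at 4737 and 4587 for B. All 12 macrophage markers were called higher in B than in A and all 12 lower in C1 than in B, against 14.5% and 21.1% of tested genes. The 4 of known level passed the filter on low values only through the B libraries, so calls of these 4 are a description. Their summed level was 23240 and 22300 normalized reads for B, 16.1 and 380 for A and at most 7.08 in the cultures. The part of Itgad and the macrophage markers in the Cox6a2 values was not tested.

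Cox7a1 (chr7:30184171-30186030), the muscle form of subunit 7a, had 29.0 and 14.5 normalized reads for B, 1 and 5.40 for A, 1 and 2.34 for C1, 1 and 6.21 for C2, and 2.13 and 1.61 for C3. B was highest, with no overlap, at least 7.19-fold above C1. Cox6b2 (chr7:4751792-4753094), a testis form of subunit 6b, had 28.6 and 11.3 for A, 6.88 and 3.62 for B, 1 and 1 for C1, 2.04 and 9.78 for C2, and 1 and 1 for C3. A was highest, at least 6.60-fold above C1. The mean of B lay under the 3-read limit, so no fold is given for C1 against B. The muscle form Cox8b and the testis forms Cox7b2 and Cox8c were listed at 0 in all 10 libraries, as were the Atp5l copies Atp5l2 and Atp5l-ps1. Markers of heart muscle cells with a known level, 7 of 15, summed to 11.8 to 23.4 normalized reads in A and B, 7.67 to 10.0 in C1 and C2, and 48.7 to 56.9 in C3, most of the C3 sum from Myl7. Each of the 7 adds at least 1, so the sums of C1 and C2 are mostly floor. Of the 15, 7 could be tested, and 1 was called higher and 1 lower in C2 than in C1, against 12.2% and 8.18% of tested genes. The higher one, Tnni3, is outside the sum and had centred log2 values of −3.285 and −2.87 for C1 and 2.11 and 1.56 for C2. Myoglobin (Mb) was at the floor in 9 of 10 libraries and Actn2 in 8.

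Ndufa4 (chr6:11900372-11907450), the complex IV subunit related to Ndufa4l2, ran opposite to it between primary cells and C1. Centred log2 values of this gene were −0.78 and −0.97 for A, −0.59 and −0.41 for B, 0.66 and 0.70 for C1, −0.14 and 0.14 for C2, and 0.65 and 0.75 for C3. C1 and C3 were high, A and B low, and C2 lay between, without overlap except between C1 and C3. C1 exceeded A by 1.56 ± 0.15 (adjusted p = 0.000523, limma) and B by 1.18 ± 0.15 (adjusted p = 0.000892, limma). C2 was lower than C1 by a log2 difference of −0.68 ± 0.15 and C3 higher than C2 by 0.70 ± 0.15 (adjusted p = 0.0149 and 0.0102, limma). The centred value of Ndufa4l2 minus that of Ndufa4 was 8.68 and 8.86 for A, 7.07 and 6.70 for B, −4.00 and −4.04 for C1, 0.63 and −0.63 for C2, and −3.99 and −4.09 for C3. Because each gene is centred on its own median, this balance orders the libraries and does not say which of the pair is more abundant.

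The other isoforms of all tissues moved less. Cox7a2, the ubiquitous form of subunit 7a (chr9:79755241-79771422), had centred log2 values of −0.63 and −0.26 for A, 0.53 and 0.61 for B, −0.06 and 0.06 for C1, −0.10 and −0.13 for C2, and 0.44 and 0.41 for C3. A was lowest and B highest, with a difference of 1.02 ± 0.16 (adjusted p = 0.0025, limma), which falls below the size required without A replicate 1 (0.83) or B replicate 2 (0.97) and under quantile normalization (0.99). Cox6a1, the ubiquitous partner of Cox6a2, was −0.04 and 0.15 for A, 0.44 and 0.49 for B, −0.39 and −0.29 for C1, 0.09 and −0.09 for C2, and 0.03 and −0.03 for C3, and it was lower in C1 than in B, by −0.80 ± 0.14 (adjusted p = 0.00281, limma). Cox6b1, the partner of Cox6b2, was −0.11 and −0.36 for A, 0.46 and 0.48 for B, −0.41 and −0.17 for C1, −0.02 and 0.02 for C2, and 0.17 and 0.12 for C3, with C1 again under B, by −0.76 ± 0.15 (adjusted p = 0.00462, limma). Both genes were thus highest in B, where their libraries overlap no other type. Cox7b was −0.43 and −0.52 for A and 0.36 and 0.40 for C1, a difference of 0.86 ± 0.14 (adjusted p = 0.00304, limma), with 0.05 and 0.24 for B, −0.13 and 0.04 for C2, and −0.04 and −0.15 for C3. Cox6a1, Cox6b1 and Cox7b did not reach the size of a call in any comparison, and neither did Cox8a, with −0.56 and −0.23 for A, −0.04 and −0.05 for B, −0.04 and 0.27 for C1, 0.34 and 0.18 for C2, and 0.12 and 0.04 for C3.

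The 3 genes for the same c subunit of the rotor of complex V were also never called. Atp5g1 was 0.18 and −0.30 for A, −0.09 and 0.09 for B, −0.21 and −0.19 for C1, 0.18 and −0.10 for C2, and 0.31 and 0.16 for C3. Atp5g2 was −0.21 and −0.49 for A, −0.01 and 0.10 for B, 0.04 and 0.20 for C1, −0.07 and 0.01 for C2, and 0.03 and −0.21 for C3. Atp5g3 was −0.08 and −0.12 for A, −0.13 and −0.05 for B, −0.04 and 0.09 for C1, 0.04 and 0.26 for C2, and 0.54 and 0.33 for C3. None of the 3 spanned more than 1 between its type means.

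Between the primary types, subunits of all tissues lay mostly higher in B than in A by small amounts. Of the 74, 67 had a positive difference, with a median of 0.37 against 0.01 over all tested genes, and 17 passed the adjusted p of 0.05 upward and 0 downward (limma). The background at any size was 21.3% of tested genes upward and 18.4% downward. Of all 88 members, 2 were called higher and 1 lower, against 14.5% and 12.4% of tested genes. All 11 complex IV subunits were positive, between 0.33 and 1.02, with 5 past the adjusted p. Complex I had 31 of 36 positive and 6 past it, complex II 4 of 4 and 2, complex III 8 of 8 and 2, and complex V 13 of 15 and 2. Cox5a, a core-associated subunit of cytochrome c oxidase, was −0.52 and −0.52 for A and 0.24 and 0.44 for B, with a difference of 0.86 ± 0.13 (adjusted p = 0.00219, limma). Ndufa1, a small membrane-arm subunit encoded on the X chromosome, was 0.02 and −0.02 for A and 0.94 and 0.94 for B, with a difference of 0.94 ± 0.16 (adjusted p = 0.00359, limma). Neither gene overlapped between A and B. All 12 macrophage markers were called higher in B than in A, with a median log2 difference of 7.56, and 8 of 12 fibroblast markers were called lower, with a median of −1.53. Of the macrophage markers, 4 passed the filter on low values only through the B libraries, so their calls are a description. The part of the macrophage and fibroblast markers in the subunit differences was not tested. The number of subunits past the adjusted p was 10 under quantile normalization, 3 in the fit of A and B alone, 11 without B replicate 1 and 7 without B replicate 2, while the median stayed between 0.29 and 0.43 in all of these settings and without either A library.

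**Figure D3:**
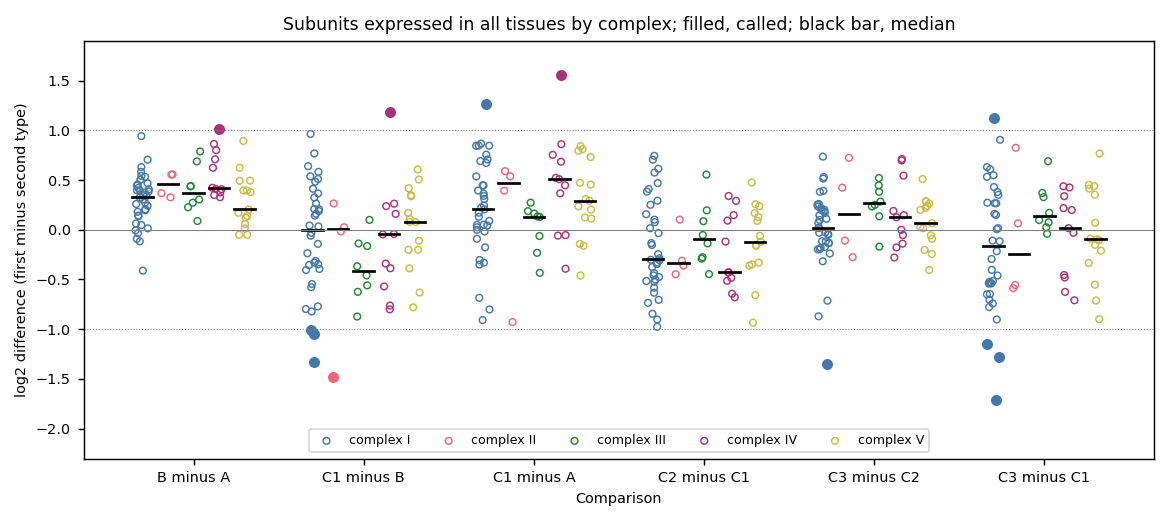
Log2 difference (first minus second type) of each of the 74 subunits of all tissues in the 6 comparisons, coloured by complex, filled where called, with a black bar at the median of a complex and dotted lines at ±1. In B minus A all 5 medians lie above 0, and 67 of 74 points do.

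From B to C1, subunits moved both ways. Of the 88 genes, 1 was called higher and 10 lower, against 12.6% and 21.1% of tested genes (limma). Under quantile normalization the counts were 2 and 6, and no share of all tested genes is given for that scaling. The median over the 74 was −0.05, which turned to 0.07 under quantile normalization. The lower genes were the 5 restricted isoforms, Sdhb, Ndufc1, Atp5sl, Ndufb6 and Ndufs5, and the higher one was Ndufa4. Sdhb (chr4:140961271-140979198), the iron-sulphur subunit of succinate dehydrogenase, was 0.06 and 0.15 for A, 0.58 and 0.74 for B, −0.63 and −1.02 for C1, −0.62 and −0.82 for C2, and −0.01 and 0.01 for C3. C1 and C2 were low and overlap each other, and the fall from B to C1 was −1.48 ± 0.17 (adjusted p = 0.000519, limma).

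The other 3 subunits of complex II were not called in that comparison. Sdha, the flavoprotein that oxidises succinate, was −0.11 and −0.19 for A, 0.16 and 0.19 for B, 0.46 and 0.42 for C1, −0.07 and 0.06 for C2, and −0.06 and −0.18 for C3. It was higher in C1 than in A by 0.59 ± 0.12 (adjusted p = 0.00885, limma) and lower in C3 than in C1, by −0.56 ± 0.12 (adjusted p = 0.00835, limma). Sdhb had the opposite sign in both comparisons, at −0.93 ± 0.17 for C1 minus A and 0.82 ± 0.17 for C3 minus C1 (adjusted p = 0.00524 and 0.00599, limma). Sdhc and Sdhd encode the membrane anchors. Sdhc was 0.01 and −0.22 for A, 0.22 and 0.31 for B, 0.24 and 0.34 for C1, −0.01 and −0.03 for C2, and −0.27 and −0.32 for C3. Sdhd was −0.41 and −0.52 for A, −0.07 and 0.25 for B, 0.07 and 0.07 for C1, −0.27 and −0.31 for C2, and 0.15 and 0.12 for C3. The 4 subunits of one complex thus reached their highest type mean in B (Sdhb), C1 (Sdha and Sdhc) and C3 (Sdhd).

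In complex I, 3 accessory subunits of the membrane arm were called lower in C1 than in B. Ndufc1 (chr3:51405479-51408955) was 0.71 and 0.67 for B and −0.67 and −0.61 for C1, a difference of −1.33 ± 0.15 (adjusted p = 0.00045, limma), with 0.23 and 0.08 for A, −0.23 and 0.09 for C2, and −0.08 and −0.14 for C3. Ndufb6 (chr4:40270591-40279421) was 0.06 and 0.39 for B, −0.77 and −0.87 for C1, 0.23 and −0.06 for A, −0.23 and −0.19 for C2, and 0.31 and 0.30 for C3. It fell by 1.05 ± 0.17 from B to C1 and rose by 1.13 ± 0.17 from C1 to C3 (adjusted p = 0.00195 and 0.00134, limma). C1 held the lowest libraries of both genes. Ndufs5, chosen after its values were seen, was 0.63 and 0.84 for B and −0.40 and −0.15 for C1, a difference of −1.01 ± 0.18 (adjusted p = 0.0036, limma), which falls below 1 without B replicate 2 (−0.91) or C1 replicate 1 (−0.88). Without B replicate 2 the difference of Ndufb6 was −0.88. Exons of Ndufb6 share 39.0% of their bases with Smim27 on the opposite strand, and Ndufs5 has a near-identical copy, BC002163, so their reads are uncertain. Atp5sl, named for ATP synthase but known from the assembly of complex I, was 0.47 and 0.69 for B and −0.72 and −0.68 for C1, a fall of 1.27 ± 0.20 (adjusted p = 0.002, limma).

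At any size, 10 of the 74 subunits were higher and 15 lower in C1 than in B with an adjusted p under 0.05 (limma), against 22.1% and 29.4% of tested genes. Leaving out 1 library of B or C1 left 3 to 6 higher and 9 to 14 lower. Among those that kept their side under every alternative, Ndufa12 and Ndufa10 were higher in C1, by 0.96 ± 0.15 and 0.64 ± 0.13 (adjusted p = 0.00161 and 0.00545, limma). Uqcrq, Ndufab1 and Ndufa3 were lower, by −0.87 ± 0.17, −0.82 ± 0.14 and −0.77 ± 0.12 (adjusted p = 0.00531, 0.00234 and 0.00215, limma). Uqcrq belongs to complex III and Ndufab1 is the mitochondrial acyl carrier protein. In complex III, 7 of 8 subunits had a negative difference, with a median of −0.41, and 2 passed.

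**Figure D4:**
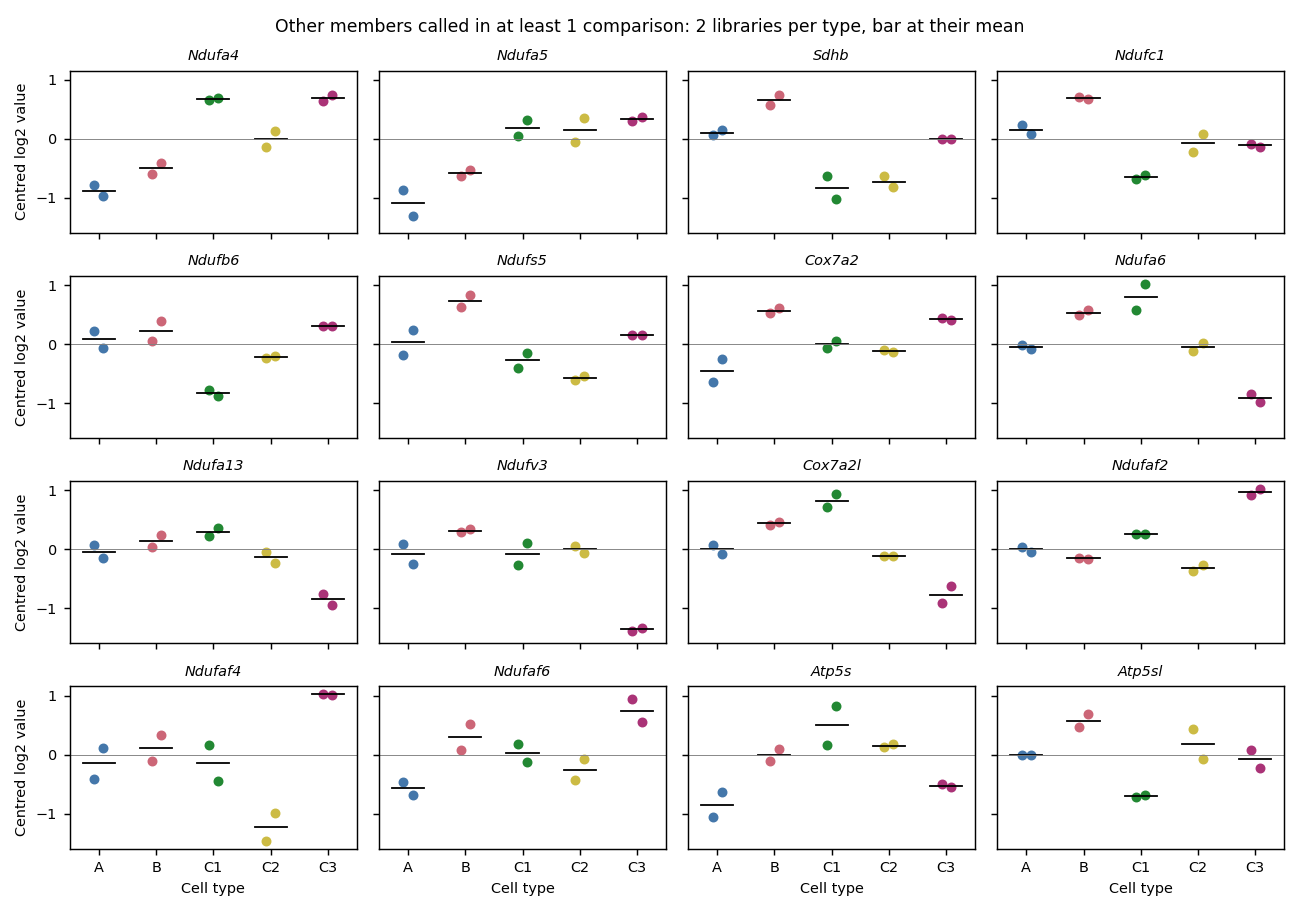
Centred log2 values of the 16 called genes other than the restricted isoforms, 2 points per cell type with a bar at their mean. Ndufa4 and Ndufa5 are lowest in A, Sdhb, Ndufc1 and Ndufb6 are low in C1, and Ndufa6, Ndufa13, Ndufv3 and Cox7a2l are lowest in C3.

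The core of complex I, which carries the flavin and the iron-sulphur clusters, was called in no comparison. Its members from the electron entry side were Ndufv1, at −0.23 and −0.12 for A, −0.71 and −0.45 for B, −0.02 and 0.02 for C1, 0.33 and 0.26 for C2, and 0.27 and 0.26 for C3, and Ndufv2, at −0.14 and −0.34 for A, −0.14 and 0.20 for B, 0.44 and 0.59 for C1, −0.23 and 0.09 for C2, and 0.07 and −0.07 for C3. Ndufs1 was −0.18 and −0.13 for A, −0.26 and −0.02 for B, 0.10 and 0.04 for C1, −0.30 and 0.13 for C2, and 0.15 and 0.02 for C3, with overlap between most types. C1 was thus highest for Ndufv2 and lay under C2 and C3 for Ndufv1. On the side that reduces ubiquinone, Ndufs3 was −0.05 and −0.06 for A, 0.22 and 0.19 for B, 0.58 and 0.66 for C1, −0.22 and 0.05 for C2, and −0.20 and −0.37 for C3. Ndufs7 was −0.37 and −0.71 for A, −0.20 and 0.22 for B, 0.27 and 0.39 for C1, 0.22 and −0.13 for C2, and 0.13 and −0.39 for C3. Ndufs8 was −0.05 and −0.13 for A, 0.14 and 0.46 for B, −0.09 and −0.12 for C1, −0.06 and 0.05 for C2, and 0.59 and 0.46 for C3. For Ndufs3 C3 lay under C1, by −0.90 ± 0.14 (adjusted p = 0.00184, limma), while for Ndufs8 it lay above, by 0.63 ± 0.15 (adjusted p = 0.0112, limma).

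Uqcrfs1 of complex III, Cox5a and Cox5b of complex IV, and Atp5a1, Atp5b, Atp5c1 and Atp5d of complex V were called in no comparison. Cox5a and Cox5b lie beside the catalytic core of complex IV and are not part of it. Uqcrfs1, the Rieske iron-sulphur protein of complex III, was −0.26 and −0.18 for A, 0.02 and 0.08 for B, −0.15 and −0.02 for C1, 0.08 and −0.08 for C2, and 0.29 and 0.28 for C3. Cox5a was −0.06 and 0.06 for C1, −0.53 and −0.50 for C2, and 0.20 and 0.19 for C3, so that A and C2 were low, and C3 lay above C2 by 0.71 ± 0.13 (adjusted p = 0.00446, limma). Cox5b was −0.18 and −0.32 for A, 0.07 and 0.27 for B, 0.41 and 0.46 for C1, 0.09 and −0.19 for C2, and −0.07 and −0.31 for C3. In the rotary head of complex V, Atp5a1 was −0.17 and −0.16 for A, −0.04 and −0.01 for B, 0.15 and 0.14 for C1, 0.03 and 0.01 for C2, and 0.17 and −0.09 for C3. Its catalytic partner Atp5b was −0.50 and −0.41 for A, −0.48 and −0.53 for B, 0.00 and 0.00 for C1, 0.14 and 0.04 for C2, and 0.42 and 0.28 for C3. Both primary types were thus lower than all cultures for Atp5b, and C1 exceeded B by 0.51 ± 0.12 (adjusted p = 0.0131, limma). The stalk subunit Atp5c1 was −0.21 and −0.46 for A, −0.02 and 0.14 for B, 0.36 and 0.44 for C1, 0.02 and 0.08 for C2, and −0.06 and −0.25 for C3. Atp5d, also of the stalk, was 0.03 and 0.02 for A, −0.03 and −0.02 for B, −0.13 and −0.14 for C1, 0.57 and 0.11 for C2, and 0.06 and −0.19 for C3, with its widest gap inside C2.

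C1 and A are both c-kit+/CD45- by their labels, 1 cultured and 1 primary. Of the 88 genes, 3 were called higher and 3 lower in C1, against 10.1% and 16.6% of tested genes (limma). Under quantile normalization 13 were called higher and 3 lower. No share of all tested genes is given for that scaling, so the 13 have no background beside them. Over the 74 subunits, 54 had a positive difference, with a median of 0.24, and 24 passed the adjusted p upward and 5 downward, against 19.3% and 24.2% of tested genes at any size. The upward number fell to 6 in the fit of A and C1 alone, to 16 without C1 replicate 1 and to 12 without C1 replicate 2. The higher genes were Ndufa4, Ndufa5 and Atp5s, and the lower ones Ndufa4l2, Cox4i2 and Cox6b2. Ndufa5 (chr6:24518662-24527690), an accessory subunit of the matrix arm of complex I, was −0.87 and −1.30 for A, −0.63 and −0.53 for B, 0.05 and 0.32 for C1, −0.05 and 0.35 for C2, and 0.30 and 0.37 for C3. Both primary types were under all cultures, and C1 exceeded A by 1.27 ± 0.21 (adjusted p = 0.00347, limma). Atp5s, named for a coupling factor of ATP synthase, was −1.06 and −0.63 for A and 0.17 and 0.83 for C1, a difference of 1.35 ± 0.24 (adjusted p = 0.00504, limma). In the fit of A and C1 alone its adjusted p was 0.0732. Of 19 tested genes listed as core or core-associated, 11 passed upward and 1, Sdhb, downward.

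From passage 6 to passage 8, 2 of the 88 genes were called higher and 1 lower in C2, against 12.2% and 8.18% of tested genes (limma). Under quantile normalization the counts were 2 and 6, with no share of all tested genes given for that scaling. The higher genes of the main fit were Cox4i2 and Ndufa4l2. Ndufaf4, an assembly factor of complex I (chr4:24898083-24905001), was the lower one, with 0.16 and −0.45 for C1 and −1.466 and −0.995 for C2, a difference of −1.09 ± 0.30 (adjusted p = 0.0289, limma). This call was lost without C1 replicate 1 (adjusted p = 0.148) without C2 replicate 1 (0.147) and without either C3 library (0.0506), by the same limma fit. The 74 subunits had a median of −0.20, with 6 higher and 19 lower past the adjusted p, against 18.6% and 16.6% of tested genes at any size. Leaving out 1 library of either type left 0 to 3 higher and 2 to 9 lower. Ndufb4 fell by 0.98 ± 0.15, Cox7a2l by 0.94 ± 0.15 and Ndufa10 by 0.90 ± 0.13 (adjusted p = 0.00306, 0.00443 and 0.00253, limma), and these 3 kept their side under every alternative. Ndufa10 was highest in C1, at 0.66 and 0.71, and between −0.25 and 0.10 in all other libraries. Ndufb4 was 0.54 and 0.54 for C1 and −0.57 and −0.31 for C2.

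From passage 8 to passage 10, 3 of the 88 genes were called higher and 3 lower in C3, against 11.6% and 16.2% of tested genes (limma). Under quantile normalization the counts were 4 and 2, with no share of all tested genes given for that scaling. The 3 higher ones of the main fit were assembly factors of complex I, out of 6 measured. Ndufaf4 reached 1.03 and 1.02 for C3, 2.26 ± 0.30 above C2 (adjusted p = 0.00135, limma), with −0.41 and 0.11 for A and −0.11 and 0.33 for B. Ndufaf2 (chr13:108052589-108158652), a factor of late assembly, was 0.92 and 1.02 for C3 and −0.37 and −0.26 for C2, with 0.04 and −0.04 for A, −0.15 and −0.15 for B, and 0.26 and 0.26 for C1. Its rise was 1.29 ± 0.12 (adjusted p = 0.000377, limma), and 65.6% of its exon bases are shared with B230220B15Rik on the opposite strand. Ndufaf6 was 0.94 and 0.56 for C3 and −0.43 and −0.08 for C2, a rise of 1.00 ± 0.23 (adjusted p = 0.0126, limma) that did not hold without C2 replicate 1 (adjusted p = 0.0755) or C3 replicate 1 (0.0748). C3 held the highest type mean of all 3. Against C1, Ndufaf4 was higher in C3 by 1.17 ± 0.30 (adjusted p = 0.0144, limma), a call lost without C1 replicate 2 (0.086) and without either C3 library (0.063 and 0.0603). Ndufaf1, Ndufaf3 and Ndufaf5 were not called, and Ndufaf1 was lower in C3 than in C1, by −0.79 ± 0.17 (adjusted p = 0.00717, limma).

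The lower genes in C3 against C2 were Cox4i2, Ndufa4l2 and Ndufv3. Of the 74 subunits, 8 were higher and 3 lower past the adjusted p, with a median of 0.11, against 22.4% and 22.2% of tested genes at any size. Without C3 replicate 2 the numbers were 1 and 2, without C3 replicate 1 they were 2 and 3, without C2 replicate 1 they were 2 and 2, and without C2 replicate 2 they were 5 and 4. From passage 6 to passage 10, 2 of the 88 genes were called higher and 5 lower, against 17.1% and 17.7% of tested genes (limma), and 13 subunits were higher and 22 lower at any size, against 26.7% and 25.8%. Leaving out 1 library of C1 or C3 left 4 to 6 higher and 11 to 15 lower. In the fit of all libraries, complex I, with 36 of the 74 subunits, held 14 of the 22 lower and 6 of the 13 higher. No restricted isoform was called, since both C1 and C3 sit at or near the floor.

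Of the genes called lower at passage 10, Ndufa6, Ndufv3, Ndufa13 and Cox7a2l had their lowest type mean in C3. Ndufa6 (chr15:82350139-82354291) was −0.02 and −0.08 for A, 0.49 and 0.58 for B, 0.58 and 1.02 for C1, −0.11 and 0.02 for C2, and −0.85 and −0.99 for C3. C1 and B were highest and both C3 libraries lay under every other library, with a difference of C3 minus C1 of −1.71 ± 0.17 (adjusted p = 0.000252, limma). Ndufv3 (chr17:31520115-31531326), a small subunit of the NADH-oxidising tip, was 0.09 and −0.24 for A, 0.29 and 0.34 for B, −0.27 and 0.12 for C1, 0.06 and −0.06 for C2, and −1.38 and −1.33 for C3. It was lower in C3 than in C2, by −1.35 ± 0.18, and than in C1, by −1.28 ± 0.18 (adjusted p = 0.00138 and 0.00111, limma), and quantile normalization brought both under the size of 1, to −0.91 and −0.86. Ndufa13 (chr8:69894163-69902558), also known as Grim19, a membrane-arm subunit tied to cell death, was 0.07 and −0.15 for A, 0.04 and 0.24 for B, 0.24 and 0.37 for C1, −0.04 and −0.23 for C2, and −0.76 and −0.94 for C3. Its difference of C3 minus C1 was −1.15 ± 0.16 (adjusted p = 0.00102, limma), and −0.95 under quantile normalization. Its exons share 30.0% of their bases with the kinase gene Tssk6 on the opposite strand, which had centred log2 values of −1.59 and −2.87 for C3 and −1.75 and −0.93 for C1. Cox7a2l (chr17:83501917-83514333) is known from work on supercomplexes of complexes III and IV, and its role in this mouse strain was not tested. Its values were 0.08 and −0.08 for A, 0.42 and 0.47 for B, 0.72 and 0.94 for C1, −0.12 and −0.10 for C2, and −0.90 and −0.62 for C3. Its difference of C3 minus C1 was −1.59 ± 0.15 (adjusted p = 0.000214, limma), and it has a near-identical copy, Gm6969.

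Other subunits went the opposite way at passage 10. Ndufab1 was −0.80 and −0.69 for C1 and 0.25 and 0.07 for C3, a difference of 0.90 ± 0.14 (adjusted p = 0.00145, limma). Its protein binds that of Ndufa6 within complex I. Atp5f1, the b subunit of the stator of complex V, was −0.49 and −0.45 for C1 and 0.29 and 0.29 for C3, a difference of 0.77 ± 0.14 (adjusted p = 0.00395, limma). Its neighbour in the stator, Atp5h, was 0.62 and 0.67 for C1 and −0.20 and −0.31 for C3, a difference of −0.90 ± 0.15 (adjusted p = 0.00217, limma). Atp5h has 4 near-identical copies, Ndufab1 has 2 and Atp5f1 has 1, so their reads are uncertain. Atp5s was also lower in C3 than in C1, by −1.02 ± 0.24 (adjusted p = 0.0111, limma), and by −0.70 without C1 replicate 2.

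Promoters of respiratory chain genes are known for binding sites of NRF1, of ETS factors such as GABP, and of YY1. Among the promoters of RefSeq (GRCm38.p6), 300 bases long around the start of transcription, 68 belong to 63 of the 74 subunits. The word TGCGCA, the half-site of NRF1, was found on either strand in 19 of the 68 (27.9%) and in 7.76% of all 32851 promoters. CGGAAG, an ETS core, was in 28 (41.2%) and in 16.9% of all, and AAGATGG, a YY1 core, in 11 (16.2%) and in 6.34% of all. CGGAAG and AAGATGG can overlap in the letters AAG. Mean GC content was 57.8% in the 68 and 53.8% over all promoters. Of those 4 genes called lower at passage 10, the promoter of Ndufa6 holds 2 matches to TGCGCA and those of Ndufa13, Ndufv3 and Cox7a2l hold none of the 3 words. The stretch listed for Ndufa13, chr8:69901971-69902270 on the minus strand, lies inside the gene and does not cover its annotated start at 69902558. The promoters of Ndufa6, the subunit that varied most, and of Ndufv3, which had the lowest C3 mean of the 74 subunits, are shown 5′ to 3′ with matches to TGCGCA in capitals. Ndufa6 is at chr15:82354242-82354541 on the minus strand and Ndufv3 at chr17:31519865-31520164 on the plus strand. A match describes the letters and not a bound site.
Ndufa6 promoter: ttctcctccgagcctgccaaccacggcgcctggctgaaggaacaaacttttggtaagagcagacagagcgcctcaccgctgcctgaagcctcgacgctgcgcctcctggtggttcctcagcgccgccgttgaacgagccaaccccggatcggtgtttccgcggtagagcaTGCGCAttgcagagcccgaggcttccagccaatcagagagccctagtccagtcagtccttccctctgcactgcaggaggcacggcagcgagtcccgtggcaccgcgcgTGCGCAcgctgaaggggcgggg
Ndufv3 promoter: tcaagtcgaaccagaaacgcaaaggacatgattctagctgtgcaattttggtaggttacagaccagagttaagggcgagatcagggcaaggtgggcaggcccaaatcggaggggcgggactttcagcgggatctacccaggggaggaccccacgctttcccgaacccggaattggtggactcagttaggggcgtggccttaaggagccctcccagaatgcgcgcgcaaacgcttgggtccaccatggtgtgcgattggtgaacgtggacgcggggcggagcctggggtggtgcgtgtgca

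Regulators of mitochondrial gene expression were measured in the same libraries. Of 16 tested regulators, 3 were called higher and 1 lower in C1 than in B (limma), against 12.6% and 21.1% of tested genes. In C2 against C1, 1 was higher and 2 lower, against 12.2% and 8.18%, and in C3 against C2, 1 was higher and 3 lower, against 11.6% and 16.2%. Ppargc1a, the coactivator that drives mitochondrial biogenesis, had 1.68 and 1.92 normalized reads for A, 1 and 1 for B, 49.4 and 40.01 for C1, 4.08 and 9.32 for C2, and 1 and 1 for C3. C1 was highest, C2 lay around its limits, and A, B and C3 were at or under theirs. Ppargc1a passed the filter only through C1, so no p-value is given, and calls of it in the counts above are a description. Ppara, a nuclear receptor of fatty acid oxidation, had centred log2 values of 1.36 and 2.10 for C1, −3.50 and −3.03 for C3, and between −0.91 and 0.89 elsewhere, and C3 lay under C1 by −5.00 ± 0.56 (adjusted p = 0.00039, limma). Nrf1, a factor that binds subunit promoters, was −0.14 and −0.57 for C1 and 1.00 and 1.31 for C3, a difference of 1.51 ± 0.19 (adjusted p = 0.000617, limma). Hif1a, which encodes the oxygen-regulated subunit of HIF1, was −0.54 and −0.61 for B and 0.54 and 0.59 for C1. The difference was 1.14 ± 0.15 (adjusted p = 0.000843, limma). Ndufa4l2 and Cox4i2 were lower in C1. HIF1 activity was not measured, and a link between these values was not tested. In C1 against B the 74 subunits had 10 genes higher and 15 lower past the adjusted p (limma). The shares of all tested genes at any size were 22.1% and 29.4%.

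**Figure D5:**
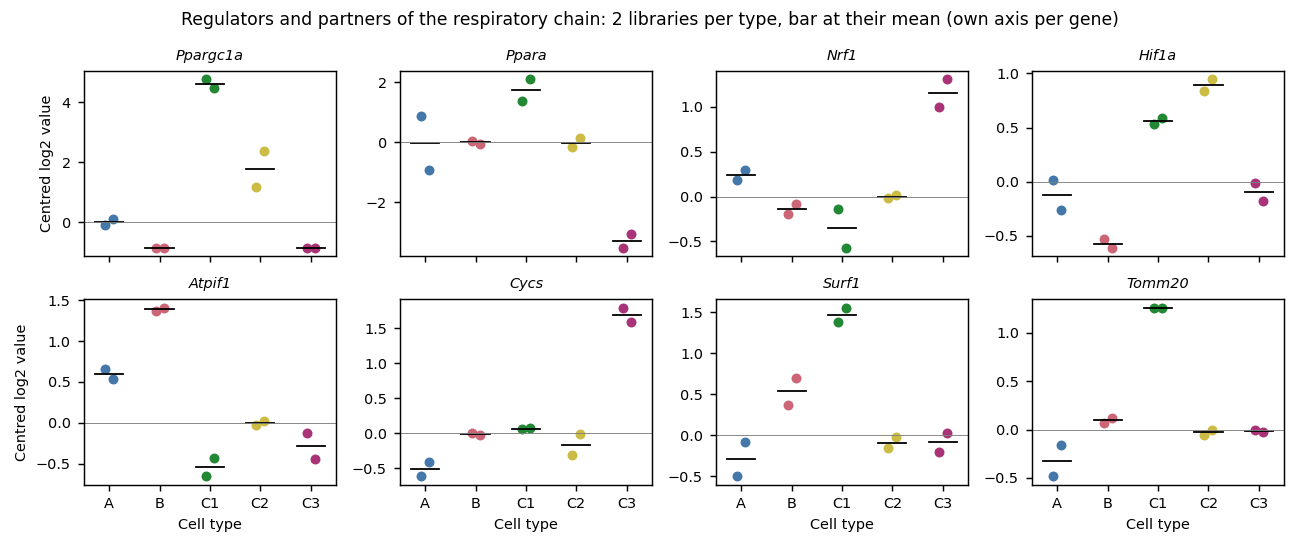
Centred log2 values of 8 regulators and partners of the respiratory chain, 2 points per cell type with a bar at their mean, each gene on its own axis. Ppargc1a, Surf1 and Tomm20 are highest in C1, and Nrf1 and Cycs are highest in C3.

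Among 18 genes for electron carriers and coupling, Atpif1, the inhibitor of ATP synthase, was 0.66 and 0.54 for A, 1.36 and 1.41 for B, −0.65 and −0.43 for C1, −0.02 and 0.02 for C2, and −0.12 and −0.44 for C3. B was highest, and C1 lay lower by −1.93 ± 0.16 (adjusted p = 0.000129, limma). Cycs, cytochrome c itself, was 1.79 and 1.59 for C3 and between −0.61 and 0.07 in the other 8 libraries, and exceeded C2 by 1.85 ± 0.16 (adjusted p = 0.000274, limma). Pdss1, which starts the side chain of ubiquinone, was 2.31 and 2.51 for C3 and −0.10 and 0.66 for C2 (difference of 2.13 ± 0.30, adjusted p = 0.00171, limma). The uncoupling protein gene Ucp2 was 6.54 and 6.50 for B, 6.55 and 2.40 for A, and −2.63 and −3.03 for C1. From passage 8 to 10, 4 of the 18 were called higher and 2 lower, against 11.6% and 16.2% of tested genes.

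Of 27 further assembly factors tested out of 38 listed, at most 3 were called in either direction in any of the 6 comparisons. The share of all tested genes called in 1 direction ran from 8.18% to 21.1% over these comparisons. In C1 against A, 3 of the 27 were higher and 1 lower, against 10.1% and 16.6% of tested genes. Surf1, needed to build complex IV, was 1.39 and 1.56 for C1 and between −0.50 and 0.70 elsewhere, and exceeded A by 1.77 ± 0.20 (adjusted p = 0.000833, limma). Acad9, a complex I factor related to acyl-CoA dehydrogenases, was −1.18 and −1.11 for C1 and 0.50 and 0.52 for C3, a difference of 1.65 ± 0.15 (adjusted p = 0.000163, limma). Of 17 citrate cycle genes, 2 were called higher and 0 lower in C1 than in B, against 12.6% and 21.1% of tested genes, namely Suclg2, by 1.34 ± 0.16 (adjusted p = 0.000647, limma), and Dld, by 1.06 ± 0.15 (adjusted p = 0.0012, limma). Of 21 genes for import, fission, fusion and structure of mitochondria, 21 had a positive difference from C2 to C3, with a median of 0.49, and 12 passed the adjusted p upward (limma), against 22.4% of tested genes. Mfn2, a fusion GTPase, was −0.58 and −0.81 for C2 and 0.66 and 0.80 for C3, a difference of 1.42 ± 0.16 (adjusted p = 0.000708, limma). Tomm20, a receptor of the outer membrane, was 1.26 and 1.26 for C1 and between −0.48 and 0.12 in the other libraries, and fell by 1.29 ± 0.14 from C1 to C2 (adjusted p = 0.00102, limma).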

How the data were processed

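The authors deposited 1 table of log2 values for 36172 genes in 10 libraries. Per the submitters' processing notes, TopHat, DESeq and mm10 were used, and their roles, versions and settings were not stated there. The deposited log2 values were read, from the values themselves, as reads divided by a size factor, raised to at least 1, with the gene median removed. This reading is inferred, and all depths and limits given here depend on it. The spacing of low values (up to 20 reads) gave relative depth, and 33.4% to 70.6% of them lay within 0.01 of whole reads, so no count test was run. The spacing and the fit were tested on simulated data. Left out were 17 genes with a cell turned into a date.

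Genes of known level needed 10 normalized reads in 2 libraries, which left 14253 of 17821 genes with values, 13058 of them of unknown level. limma 3.58.1 (R 4.3.3) was fitted with a mean per cell type, 5 residual degrees of freedom and an empirical Bayes prior (1.93 degrees of freedom, SD 0.211). P-values were two-sided and adjusted by Benjamini-Hochberg over all genes within each of 6 comparisons. Errors are SE. Exon overlaps and near-identical copies (95% over 200 bases or more) came from the GRCm38 annotation and transcripts. The kit of the labels does not mark strand.

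The members and gene lists were chosen with earlier results of these data known. Values per library were given for isoforms and their partners, core and core-associated genes, and up to 8 called members per comparison. Of other lists, values were given for up to 4 called genes. Alternatives were the filter, the scaling, the libraries fitted, a replicate block and leaving out each library. The values of 1 member are not reported here.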

Additional observations from a re-analysis of the deposited data

How the results depend on the processing

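Of the 36 called differences of single genes, 22 stayed called under every alternative that gave a value, and over all alternatives 522 values kept their call, 40 lost it and 0 changed sign. Of 147 differences under 1 with an adjusted p under 0.05, 32 kept it under every alternative and 0 changed sign. The stricter filter by its construction drops genes that reach the floor, and so the restricted isoforms. It gave 1 higher and 0 lower for B minus A, 5 lower for C1 minus B, 0 lower for C1 minus A, 0 higher for C2 minus C1 and 1 lower for C3 minus C2. Quantile normalization gave 2 higher and 6 lower for C1 minus B, 13 higher for C1 minus A and 6 lower for C2 minus C1, and the cause was not tested. No share of all tested genes is given for any alternative, so the counts in this section have no background beside them. Fitting only the 2 types compared gave 1 higher for B minus A and 0 lower for C2 minus C1, with fewer libraries behind the spread.

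With 1 library left out, members higher ran from 1 to 4 for B minus A, 1 to 2 for C1 minus B, 3 to 5 for C1 minus A, 2 to 4 for C2 minus C1 and 1 to 3 for C3 minus C1. Members lower ran from 1 to 2 for B minus A, 6 to 10 for C1 minus B and 0 to 3 for C2 minus C1. The lone library left in a type was taken to vary like the other types. B minus A reached 4 higher without A replicate 2 and 1 without B replicate 2.

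The replicate numbers did not pair the libraries: deviations of same-numbered libraries correlated between −0.06 and 0.09 over 10 pairs of types, with no pair above 0.1. With the replicate block 3 members were higher and 1 lower for B minus A and 1 higher and 9 lower for C1 minus B, where Cox6b2 was no longer called. Depth limits levels near the floor in A, B and C2, where 3 reads are worth 3.11 to 6.88 normalized reads.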
